A study of Mus musculus with 3 samples.

Results

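The genes described here are those of the mitochondrial respiratory chain and ATP synthase, 89 of the 19938 genes measured on the arrays. They were taken by name, as every gene whose symbol begins with Nduf, Uqcr, Cox4 to Cox8 or Atp5 or is Sdha, Sdhb, Sdhc or Sdhd, and whose probe sets carry that symbol alone. Of the 89, 36 are named as subunits of complex I and 7 as its assembly factors, 4 belong to complex II, 8 to complex III, 17 to complex IV and 17 to complex V. They were read by 114 probe sets, with 17 genes read by 2 or more, which were averaged.

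The arrays held total RNA from the kidney of female mice of the strain labelled CBL/6, 8 to 10 weeks old. The NTS/PGE2 array came from mice injected with nephrotoxic serum (NTS), a sheep antiserum used to bring about an immune-mediated nephritis. The dose was 13.5 ug of serum for each g of body weight, and these mice were also given prostaglandin E2 (PGE2) at 5 ug per g daily from day 2. The NTS array came from mice given the serum alone, and both groups were killed on day 7. The control array came from non-treated mice. Each group had 1 array, and the labels do not say how many animals gave its RNA, so no difference below has a replicate check, an SE or a p-value.

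The respiratory chain passes electrons from NADH and succinate to oxygen and pumps protons across the inner mitochondrial membrane, and ATP synthase uses the returning protons to make ATP. Complex I oxidises NADH, complex II succinate, complex III passes the electrons to cytochrome c and complex IV passes them to oxygen. Kidney tubules, above all those of the proximal tubule and the thick ascending limb, are packed with mitochondria because salt and solute transport consumes much ATP. All but a few of the subunits are made from nuclear genes, and NRF1, GABPA, the ERR receptors and the coactivator PGC-1alpha (Ppargc1a) are known regulators of those genes.

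The members were bright: 77 of 89 with NTS/PGE2, 75 with NTS and 77 in control reached the 75th percentile of all probe sets. Values are log2 values made by RMA, so a difference of 1 is 2-fold and one of 0.5 is 1.41-fold. A gene passed the filter on dim genes if the higher of the values compared reached the median of its array, which 87 members did in all 3 comparisons. Cox7b2 and Cox8c, isoforms known from testis, did not. Differences of at least 0.5 were counted by size alone, since no test can be had. The only measure of technical spread was the gap between probe sets of one gene, whose pooled SD over the 17 members with several was 0.09 in the comparison of NTS with control, 0.08 in that of NTS/PGE2 with NTS and 0.05 in that of NTS/PGE2 with control. Over 616 genes with 2 or more bright probe sets it was 0.19, 0.19 and 0.11 in the same order. Probe sets of one gene were read on the same array from the same RNA. Their gap therefore leaves out error between arrays, RNA samples and labellings as well as the spread between animals. It does not give the error of a difference between arrays.

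These promoters are printed because they set members with an NRF1 match beside the 2 members that differed most between arrays. The members with a match shown here do not stand for all 18 that had one. Sdha, Sdhd and Atp5h differed by -0.71, -0.35 and -0.50 for NTS against control, all below the median of -0.11 over those 18. Each line gives the 250 bases before the start of the RefSeq gene on its own strand, 5′ to 3′, from GRCm38.p6, in lower case with NRF1 matches in capitals. The places are Sdha at chr13:74350241-74350490 on the minus strand, Sdhd at chr9:50603850-50604099 on the minus strand, Atp5h at chr11:115419920-115420169 on the minus strand, Cox7a1 at chr7:30183921-30184170 on the plus strand and Cox8b at chr7:140900447-140900696 on the minus strand.
Sdha: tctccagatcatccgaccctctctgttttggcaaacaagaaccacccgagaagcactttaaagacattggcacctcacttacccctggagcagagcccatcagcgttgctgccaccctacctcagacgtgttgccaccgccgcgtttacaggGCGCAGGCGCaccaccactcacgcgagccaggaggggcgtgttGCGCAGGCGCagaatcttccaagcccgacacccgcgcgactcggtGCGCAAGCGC
Sdhd: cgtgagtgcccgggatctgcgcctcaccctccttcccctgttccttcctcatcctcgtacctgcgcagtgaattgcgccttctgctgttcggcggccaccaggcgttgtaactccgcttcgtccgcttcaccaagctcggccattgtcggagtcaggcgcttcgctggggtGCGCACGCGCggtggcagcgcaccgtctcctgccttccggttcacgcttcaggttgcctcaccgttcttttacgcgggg
Atp5h: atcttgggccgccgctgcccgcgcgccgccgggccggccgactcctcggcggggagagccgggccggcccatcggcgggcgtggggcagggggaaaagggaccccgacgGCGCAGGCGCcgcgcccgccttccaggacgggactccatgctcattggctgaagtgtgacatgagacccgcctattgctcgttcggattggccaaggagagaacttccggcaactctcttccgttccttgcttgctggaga
Cox7a1: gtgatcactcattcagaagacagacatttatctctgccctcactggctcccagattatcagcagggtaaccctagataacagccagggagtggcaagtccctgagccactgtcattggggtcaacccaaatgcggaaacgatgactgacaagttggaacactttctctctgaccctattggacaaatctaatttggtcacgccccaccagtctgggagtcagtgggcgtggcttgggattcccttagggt
Cox8b: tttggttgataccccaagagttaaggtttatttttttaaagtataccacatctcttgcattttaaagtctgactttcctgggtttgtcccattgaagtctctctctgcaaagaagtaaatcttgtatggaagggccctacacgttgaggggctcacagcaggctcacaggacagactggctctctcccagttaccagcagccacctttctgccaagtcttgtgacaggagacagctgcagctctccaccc
Sdha held 3 NRF1 matches, with their first bases 98, 55 and 10 bases before the start, while Sdhd and Atp5h held 1 each.

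Motifs were searched on both strands of the whole promoter windows of the same RefSeq table, 78 of them for 73 members and 32851 in all. The letters searched were GCGCA, any 1 base and GCGC in a row for NRF1, CCGGAAGTG for GABPA, TCAAGGTCA for ERR and AAGATGGCG for YY1. The NRF1 letters stood in 19 of the 78 member windows, or 24.4%, and in 4.6% of all windows. YY1 letters stood in 8.97% of member windows against 1.4% of all, ERR letters in 2.56% against 0.423%, and GABPA letters in 2.56% against 2.03%. The median GC content was 58% in member windows and 52.67% in all, and the part of GC content in these shares was not tested. Members with an NRF1 match did not move as one. Their median log2 difference for NTS against control was -0.11 over 18 genes, running from -0.72 in Ndufaf4 to 0.40 in Atp5k, against -0.22 over the 55 members with a promoter and no match. The 7 members with a YY1 match were all lower on NTS than on control, as were 73.6% of all members and 40.6% of all genes passing the filter on dim genes. They ran from -1.02 to -0.02, with a median of -0.46 against -0.15 over the 66 without. GABPA matches stood in 2 members, with a median of -0.56 against -0.15 over 71, and ERR matches in 2, with one of -0.13 against -0.19. Groups this small are given as values only. Cox7a1 and Cox8b held none of the 4 motifs, and that says only that these letters are not in these windows.

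In the first comparison, NTS against control, most members stood a little lower on the NTS array. The median difference over the 89 members was -0.22, and over all 11778 genes passing the filter it was 0. Of the 87 members passing the filter, 23 were lower by at least 0.5, which is 26.4%, while 14.2% of all genes passing it were. Only 3 members were higher by as much, which is 3.45% against 9.62% of all genes. Lower by any amount were 64 of the 87, or 73.6%, against 40.6% of all genes, and higher by any amount 18, or 20.7%, against 40.2%. Among genes reaching the 75th percentile, 23 of 79 members, or 29.1%, were lower by at least 0.5, and 17.4% of all such genes were. Few differences were large: 4 members were at least 2-fold lower, or 4.6% against 5.42% of all genes, and 0 at least 2-fold higher, against 2.7%. In a bulk sample fewer cells of a type and less RNA per cell cannot be told apart.

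**Figure D1:**
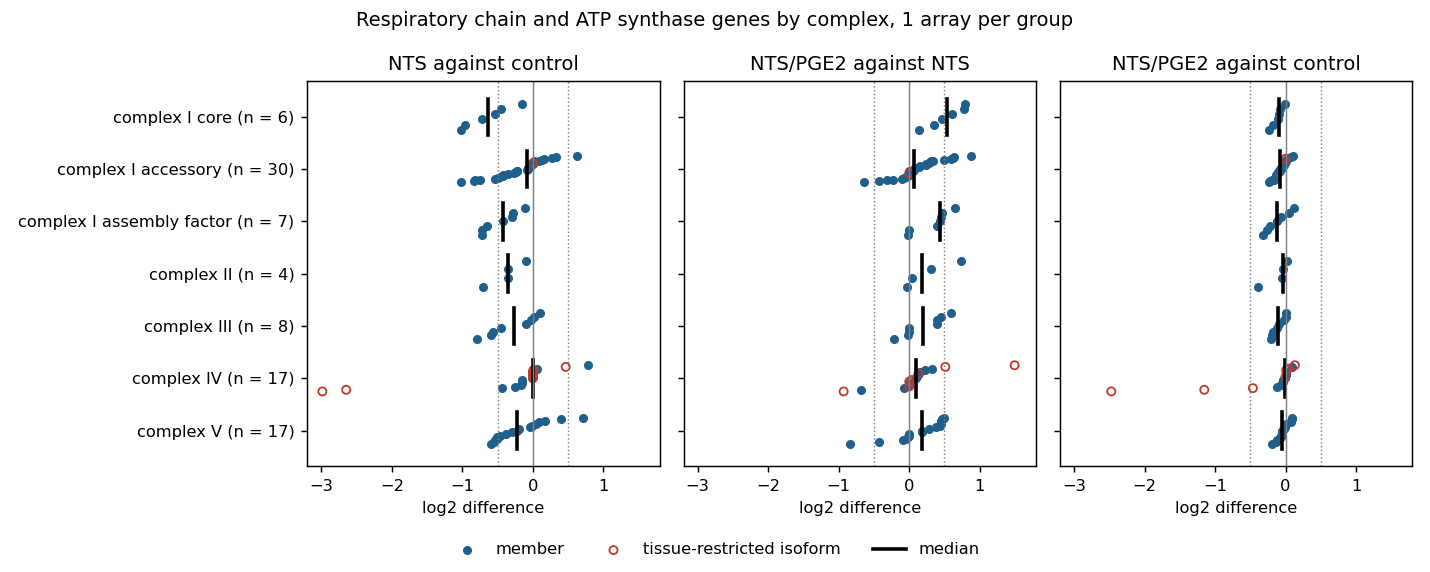
Log2 difference of each of the 89 members in the 3 comparisons, in rows by complex; points are genes, open circles are isoforms known from particular tissues, bars are medians and dotted lines mark 0.5 either way. The complex I core genes lie left of 0 for NTS against control, with a median of -0.63, and right of 0 for NTS/PGE2 against NTS, with a median of 0.54, and Cox8b and Cox7a1 lie far to the left of the other complex IV genes in the first panel.

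The catalytic core of complex I, the set of subunits kept since bacteria that carries the flavin and the iron-sulphur clusters, was lower in every measured member. All 6 core genes were lower on the NTS array, as were 73.6% of members and 40.6% of all genes passing the filter. By at least 0.5, 4 of the 6 were lower, or 66.7% against 14.2% of all genes, and their median was -0.63. Ndufs7, next to the ubiquinone site, read 12.86 in NTS/PGE2 kidney, 12.07 in NTS kidney and 13.09 in control kidney, 2.03-fold lower on the NTS array than on control. Ndufs8, which holds iron-sulphur clusters of the same arm, read 11.97, 11.20 and 12.15 on these arrays in the same order, a difference of -0.96 for NTS against control. Ndufs1, the large iron-sulphur subunit of the NADH-oxidising module, read 10.66 with NTS/PGE2, 10.05 with NTS and 10.77 in control. For each of these genes the NTS value was the low one and the other two lay within 0.25 of each other. Ndufs3 differed by -0.54, Ndufv1, which binds NADH and flavin, by -0.45 and Ndufv2 by -0.15.

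The 30 accessory subunits of complex I went both ways, with a median of -0.08. By at least 0.5, 5 were lower, or 16.7%, near the 14.2% of all genes, and 1 was higher, or 3.33% against 9.62%. Ndufb9, of the membrane arm, differed most, reading 12.27 in NTS/PGE2 kidney, 11.40 in NTS kidney and 12.42 in control kidney, 2.04-fold lower on NTS than on control. Ndufc1 differed by -0.83, Ndufa2 by -0.82, Ndufb5 by -0.75 and Ndufb11 by -0.54. Ndufab1, the mitochondrial acyl carrier protein that also serves lipoic acid synthesis, differed by -0.43. Against these, Ndufb2 was the higher one, reading 8.28 with NTS/PGE2, 8.92 with NTS and 8.29 in control, and Ndufa7 stood 0.32 higher on NTS than on control. The accessory genes between these lay from -0.49 in Ndufa8 to 0.27 in Ndufb7. Ndufa4, whose protein is now placed in complex IV, differed by 0.13, and its relative Ndufa4l2, known as a hypoxia-responsive gene, read 7.17 on all 3 arrays.

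Assembly factors of complex I, which build the enzyme without staying in it, were lower on the NTS array in all 7 cases. Lower by any amount were 73.6% of members and 40.6% of all genes passing the filter. By at least 0.5, 3 of the 7 were lower, or 42.9% against 14.2% of all genes, and their median was -0.42. Ndufaf4 read 9.01 in NTS/PGE2 kidney, 8.56 in NTS kidney and 9.28 in control kidney, and Ndufaf3 read 9.90, 9.25 and 9.96 in the same order. Ndufaf1 differed by -0.66 for NTS against control. The other four ran from -0.42 in Ndufaf5 to -0.11 in Ndufaf7.

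Complex II, which is also the succinate dehydrogenase of the citrate cycle, was lower in its catalytic subunit more than in the others. Sdha, which carries the flavin, read 12.50 with NTS/PGE2, 11.77 with NTS and 12.48 in control, a difference of -0.71 for NTS against control. Sdhb, the iron-sulphur subunit, read 11.52, 11.48 and 11.57 on these arrays, and so barely differed. The membrane anchors Sdhd and Sdhc differed by -0.35 and -0.36 for NTS against control, but Sdhc read 11.43 on the NTS/PGE2 array and 11.45 on the NTS array against 11.81 on control, so its control value was the one apart.

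In complex III, 3 of 8 genes, or 37.5% against 14.2% of all genes, were lower by at least 0.5 on the NTS array and 0 higher, with a median of -0.27. Uqcrb, a small subunit near the quinone site, read 12.33 in NTS/PGE2 kidney, 11.73 in NTS kidney and 12.52 in control kidney. The core subunits Uqcrc1 and Uqcrc2 differed by -0.59 and -0.45 and the hinge protein gene Uqcrh by -0.57 for NTS against control. Uqcrfs1, the Rieske iron-sulphur protein, read 9.67 with NTS/PGE2, 9.67 with NTS and 9.76 in control. Uqcrq at -0.02, Uqcr10 at 0.02 and Uqcr11 at 0.10 were near the same on both arrays, so the 8 genes did not share 1 size of difference.

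Complex IV, cytochrome c oxidase, held few genes that differed by size once isoforms of other tissues were set aside. Without the 7 isoforms known from particular tissues its 10 genes had a median of -0.15 for NTS against control, with 0 lower by at least 0.5, against 14.2% of all genes, and 1 higher, or 10% against 9.62%. Cox4i1, an early-assembling subunit, read 11.87 in NTS/PGE2 kidney, 11.74 in NTS kidney and 11.91 in control kidney. Cox5a read 11.59 and Cox6b1 12.30 on all 3 arrays, exactly equal values of the kind that RMA gives often and that do not show the absence of a small difference. Cox5b differed by -0.15, Cox6c by -0.25, Cox7a2 by -0.15, Cox8a by -0.15, Cox6a1 by 0.06 and Cox7b by -0.43. The higher gene was Cox7a2l, which read 8.92 with NTS/PGE2, 9.61 with NTS and 8.83 in control. Its 2 probe sets differed by 0.61 and 0.94 for NTS against control.

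For complex V, ATP synthase, 5 of 17 genes, or 29.4% against 14.2% of all genes, were lower by at least 0.5 on the NTS array and 1 higher, or 5.88% against 9.62%, with a median of -0.22. Atp5b, the catalytic beta subunit, read 13.53 in NTS/PGE2 kidney, 13.10 in NTS kidney and 13.60 in control kidney. Atp5g1, 1 of 3 genes for the same c-ring protein, differed by -0.60 for NTS against control, while Atp5g2 differed by 0.05 and Atp5g3 by 0.08. The c-ring genes thus went unequally. Atp5pb, the b subunit of the stalk, differed by -0.55, the delta subunit Atp5d by -0.53, the d subunit Atp5h by -0.50, Atp5a1 by -0.29, the gamma subunit Atp5c1 by -0.19 and Atp5o, of the stalk's tip, by -0.01. A pair of small membrane subunits ran the other way. Atp5l, subunit g, read 10.35 with NTS/PGE2, 11.19 with NTS and 10.48 in control, and Atp5k, subunit e, read 8.77, 9.20 and 8.80 in the same order. Atp5l was read by 6 probe sets that all differed upwards for NTS against control, from 0.56 to 0.80. Many genes of this family have processed copies in the mouse genome, and a gene read by several probe sets may share probe sequence with such copies, so its value is uncertain.

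**Figure D2:**
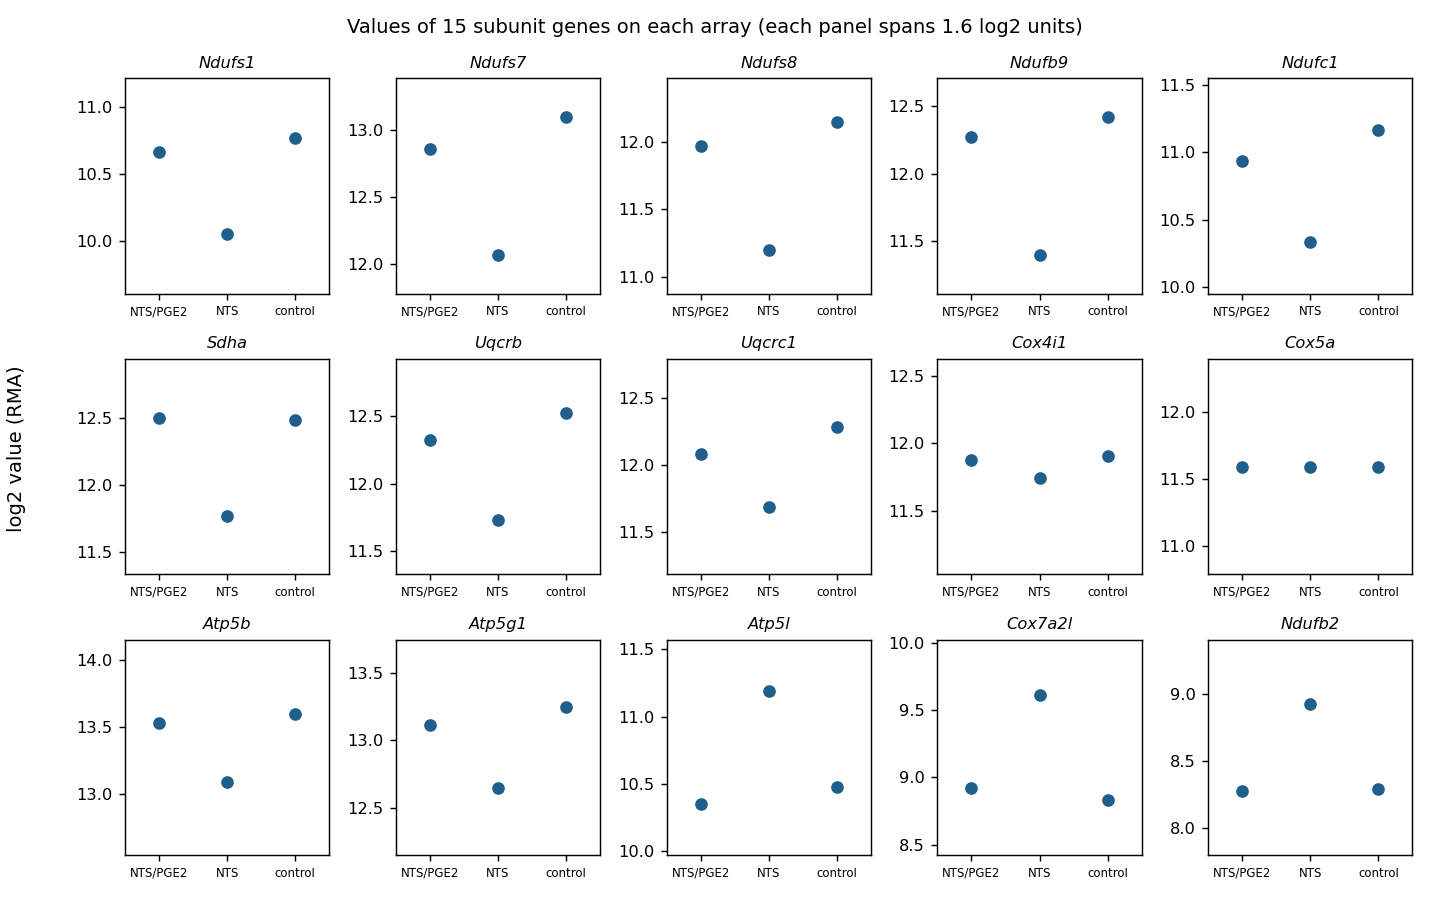
Log2 values of 15 subunit genes by array (NTS/PGE2, NTS, control), 1 point each; every panel spans 1.6 log2 units around its own centre. Ndufs7 reads 12.86, 12.07 and 13.09 from left to right and Atp5l reads 10.35, 11.19 and 10.48, while Cox5a lies at 11.59 on all arrays.

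**Figure D3:**
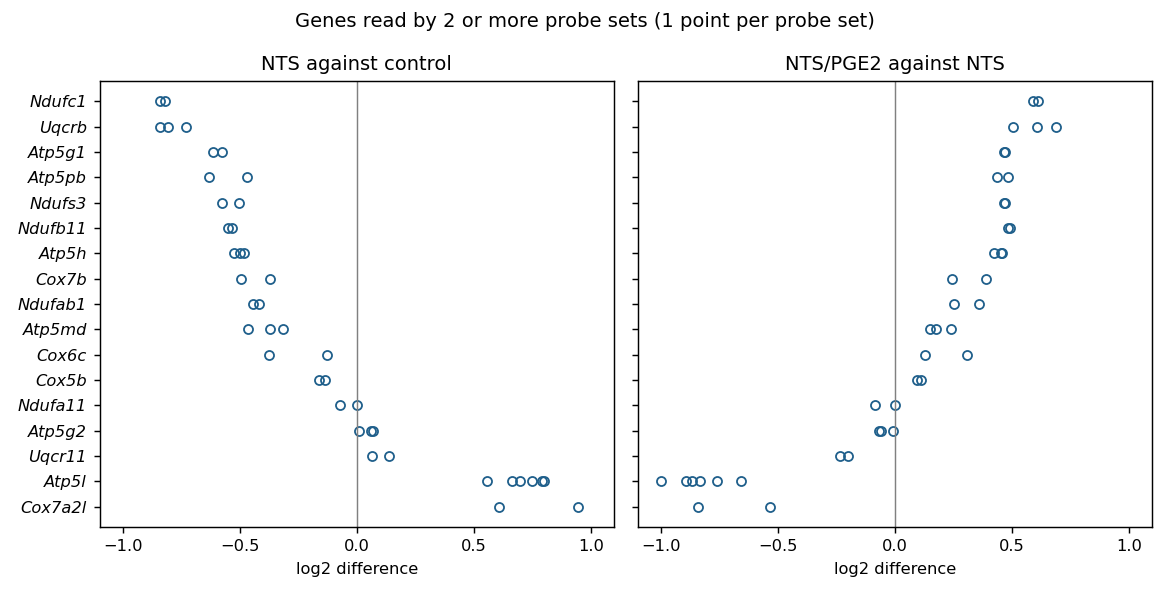
Log2 differences of the 17 members read by 2 or more probe sets, 1 open circle per probe set, for NTS against control on the left and NTS/PGE2 against NTS on the right. The 6 probe sets of Atp5l lie between 0.56 and 0.80 on the left and at -0.66 or below on the right, and the 3 of Uqcrb between -0.84 and -0.73 on the left.

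The 2 members with the largest differences were Cox8b and Cox7a1, isoforms of complex IV that are known from heart, skeletal muscle and brown fat and whose places other tissues fill with Cox8a and Cox7a2. Cox8b read 8.94 in NTS/PGE2 kidney, 8.43 in NTS kidney and 11.42 in control kidney, 7.92-fold lower on NTS than on control. Cox7a1 read 9.80 with NTS/PGE2, 8.31 with NTS and 10.95 in control, 6.27-fold lower on NTS than on control. Both were highest on the control array. Their partners showed no such gap, with Cox8a at 13.10, 12.95 and 13.10 and Cox7a2 at 11.73, 11.63 and 11.78 on the NTS/PGE2, NTS and control arrays.

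Most markers of fat were also highest on the control array, but Cox7a1 and their summed level differed between the other 2 arrays. Cox7a1 was 1.49 higher on NTS/PGE2 than on NTS, and the summed level was not higher. Over 10 measured fat markers the summed level, as a log2 value, was 10.80 in NTS/PGE2 kidney, 10.88 in NTS kidney and 13.90 in control kidney. Of the 9 passing the filter, 8 were at least 2-fold lower on NTS than on control, against 5.42% of all genes, while Plin4 was 0.96 higher. Most of the 9 passed only through the control array, where they were high, so the filter partly set this count. Lep did not pass and read 5.65 with NTS/PGE2, 5.62 with NTS and 5.65 in control. Ucp1, the uncoupling protein of brown fat, read 5.91 with NTS/PGE2, 5.72 with NTS and 11.84 in control. Retn, Adipoq and Cidea differed by -4.97, -4.48 and -3.52 for NTS against control. Striated muscle markers were mostly dim, with 7 of 11 below the median of every array. Only 4 passed the filter for NTS against control. Of these, 0 differed by 0.5 or more, against 14.2% of all genes lower and 9.62% higher. Among those not passing, Myl1 read 5.06 with NTS/PGE2, 5.24 with NTS and 6.03 in control. The creatine kinase gene Ckm read 7.06 on all 3 arrays. So few and dim markers say little about muscle. The part of fat in the values of Cox8b, Cox7a1 and the other members on the control array was not tested. Among the other isoforms, Cox4i2 read 7.16, 7.16 and 7.15 on the NTS/PGE2, NTS and control arrays and Cox6a2, of muscle, 7.47, 7.34 and 7.34. Cox6b2, known from testis, read 7.88, 8.81 and 8.34 on them, and Cox7b2 had the same value on each.

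**Figure D4:**
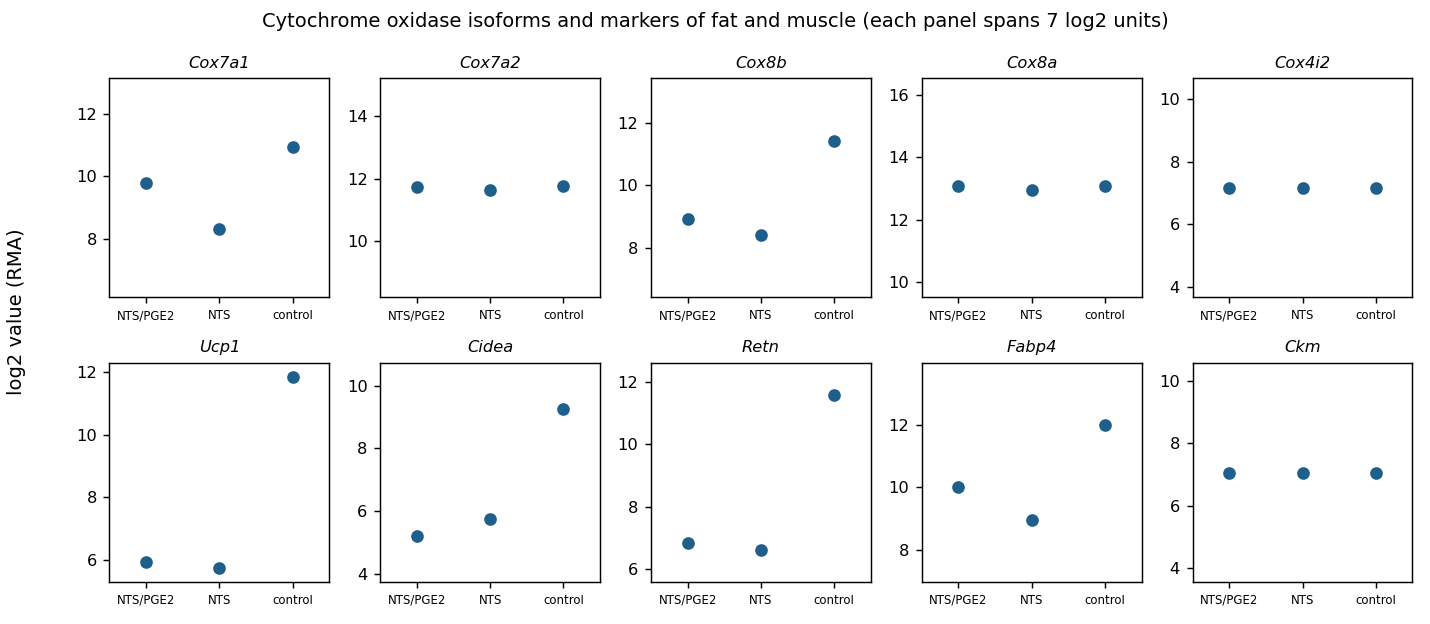
Log2 values of complex IV isoforms in the upper row and of fat markers and the muscle gene Ckm in the lower row on the NTS/PGE2, NTS and control arrays, 1 point per array; every panel spans 7 log2 units. Cox8b, at 11.42, and Ucp1, at 11.84, are highest on the control array, while Cox8a, Cox7a2 and Ckm lie nearly level.

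By their medians, markers of the nephron stood lower on the NTS array by more than the members did. Single markers were uneven: Pck1 and Scnn1b had equal values on NTS and control, while Trpm6 differed by 0.03 and Umod by -0.06. All 14 proximal tubule markers passed the filter. At least 2-fold lower on NTS than on control were 11, against 5.42% of all genes, and the median of the 14 was -1.45. Their summed level was 16.65 in NTS/PGE2 kidney, 15.52 in NTS kidney and 16.62 in control kidney. Set against the same 5.42%, 5 of the 9 loop and distal tubule markers were at least 2-fold lower, around a median of -1.03. So were 3 of the 7 collecting duct markers, around one of -0.53. The 6 tubular injury markers were all at least 2-fold higher on NTS than on control, against 2.7% of all genes. Havcr1, Krt20 and Timp1 passed the filter only through the NTS array, where they were high, so the filter partly set this count. The summed level of the 6 was 11.21 on NTS/PGE2, 14.65 on NTS and 12.11 on control. The part of these tubule transcripts in the members' differences was not tested. All 6 measured kidney identity markers passed the filter. Of these, Lrp2, Slc12a1 and Aqp2 were at least 2-fold lower on NTS than on control, against 5.42% of all genes. Pax8 was 0.59 higher, and Umod at -0.06 and Cdh16 at 0.09 were near the same. Of 6 macrophage markers, 3 were lower by at least 0.5 on NTS than on control, or 50% against 14.2% of all genes. Higher by as much was 1, Cd68, by 2.23, or 16.7% against 9.62%.

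Other mitochondrial genes outside the naming rule were set beside the members and the 14.2% of all genes that were lower by at least 0.5. Of 17 measured electron carriers and subunits of this kind, 5, or 29.4%, were lower by at least 0.5 on NTS than on control and 0 higher, with a median of -0.21. Cyc1, the cytochrome c1 of complex III, differed by -0.65, the ATP/ADP translocase gene Slc25a5 by -0.59, Coq9 of ubiquinone synthesis by -0.59 and the phosphate carrier Slc25a3 by -0.58. Of 34 further assembly factors, 31 passed the filter, 8 of them, or 25.8%, lower by at least 0.5 and 0 higher, with Timmdc1 at -1.13, Bcs1l at -1.07, Cox11 at -1.02 and Acad9 at -0.82. Citrate cycle and pyruvate dehydrogenase genes had a median of -0.42 over 18 genes measured, with 7, or 38.9%, lower by at least 0.5 and 0 higher. Pcx, which makes oxaloacetate from pyruvate, differed by -1.25, Pdhb by -0.89, Idh3a by -0.86 and Idh3b by -0.73.

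Mitochondrial ribosome genes had a median of 0 over 77, with 8, or 10.4%, lower and 4, or 5.19%, higher by at least 0.5, against 14.2% and 9.62% of all genes, and ran from Mrpl49 at -1.07 to Mrps18c at 1.02. Mrpl34 differed by -0.96 and Mrps12 by 0.81. Cytosolic ribosome genes were taken by symbols beginning with Rpl or Rps, which also takes in like-named genes such as Rps23rg1 and Rps19bp1. They had a median of 0.25 over 62, with 1, or 1.69%, lower and 16, or 27.1%, higher by at least 0.5 among 59 passing the filter. The 1 lower was Rps23rg1 at -0.54, and the higher were led by Rps12 at 1.33, Rpl24 at 1.24, Rps3a1 at 1.06 and Rps9 at 0.88. Not every family of nuclear genes for mitochondria stood lower on the NTS array.

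**Figure D5:**
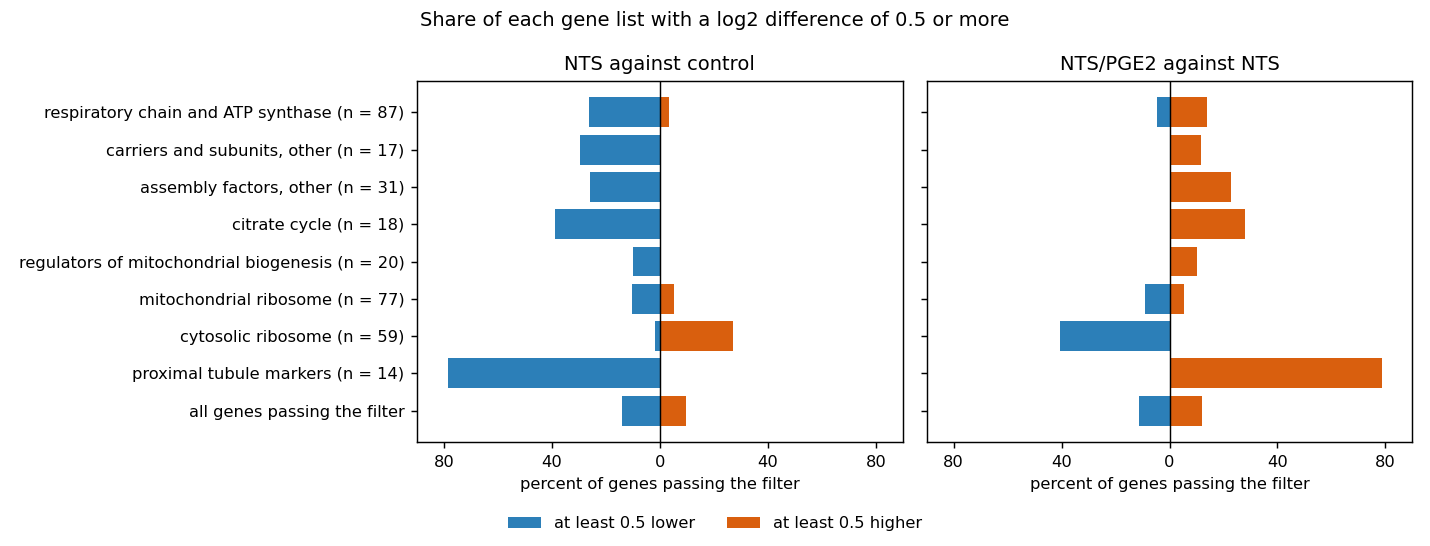
Percent of the genes passing the filter in each list that were lower (left of 0) or higher (right of 0) by at least 0.5 log2 units, for NTS against control and NTS/PGE2 against NTS; the lowest row is all genes passing the filter. The members stand at 26.4% lower and 3.45% higher in the first panel, all genes at 14.2% and 9.62%, and proximal tubule markers at 78.6% lower.

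Of 20 measured regulators of mitochondrial biogenesis, 2, or 10%, were lower by at least 0.5 on NTS than on control, against 14.2% of all genes, and 0 higher. Their median was -0.01, with 10 below 0, 5 above it and 5 at 0. Tfb1m, a mitochondrial ribosomal RNA methyltransferase, read 8.24 with NTS/PGE2, 7.37 with NTS and 8.77 in control, and the deacetylase gene Sirt3 read 10.07, 9.55 and 10.08 in the same order. Ppargc1a read 10.93 in NTS/PGE2 kidney, 10.79 in NTS kidney and 11.07 in control kidney. The nuclear receptor genes went apart, with Esrra at -0.04, Esrrg at -0.41 and Esrrb at 0.26 for NTS against control. The coactivator genes Ppargc1b and Pprc1 differed by -0.02 and 0.37, Gabpa and Gabpb1 by -0.07 and 0.29, and Tfam, which packages mitochondrial DNA, by -0.06. Tfb2m and Polrmt, of mitochondrial transcription, differed by -0.40 and -0.13, the corepressor gene Nrip1 by 0.20 and Hif1a, of the hypoxia response, by 0.21. Nrf1 at 8.09, Yy1 at 10.22, Polg at 8.28 and Sirt1 at 9.06 had equal values on all arrays, and Twnk read 7.66, 7.63 and 7.63 on the NTS/PGE2, NTS and control arrays. From mitochondrial DNA itself 2 genes were measured: COX2, a catalytic subunit of complex IV, read 13.77, 13.83 and 13.92 and ND3, of complex I, 13.27, 13.33 and 13.60 on these arrays.

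In the second comparison, NTS/PGE2 against NTS, most members stood higher on the NTS/PGE2 array. This comparison shares the NTS array with the first, so values of the same genes are not independent evidence. The median over the 89 members was 0.14, and over 11699 genes passing the filter it was 0. By at least 0.5, 12 of the 87 members passing were higher, which is 13.8% and near the 12.1% of all genes, and 4 were lower, which is 4.6% against 11.4%. Higher by any amount were 55 of the 87, or 63.2%, against 39.8% of all genes, and lower by any amount 21, or 24.1%, against 41.2%. At 2-fold, 1 member was higher and 0 lower, against 4.15% and 3.28% of all genes. The fat markers' summed level was 10.80 on NTS/PGE2 and 10.88 on NTS, with single markers going both ways, and their part in these differences was not tested.

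By complex, the medians for NTS/PGE2 against NTS were 0.54 for the complex I core, 0.07 for its accessory subunits and 0.43 for its assembly factors. They were 0.18 for complex II, 0.19 for complex III, 0.10 for complex IV and 0.19 for complex V. The core of complex I again had the widest gap, with Ndufs7 higher on NTS/PGE2 by 0.79, Ndufs8 by 0.77, Ndufs1 by 0.61, Ndufs3 by 0.47, Ndufv1 by 0.36 and Ndufv2 by 0.14. Among the accessory subunits Ndufb9 was higher by 0.88 and Ndufa2 by 0.64. Sdha was higher by 0.73, Sdhd by 0.32 and Uqcrb by 0.60, while Sdhc differed by -0.03. In complex V, 0 of 17 genes were higher by 0.5, but Atp5d at 0.49 and Atp5g1 at 0.47 lay just under, beside Atp5b at 0.44 and Uqcrc2 of complex III at 0.45. The 4 lower genes were Cox6b2 at -0.93, Atp5l at -0.84, Cox7a2l at -0.69 and Ndufb2 at -0.64; Ndufa7 and Atp5k, at -0.42 and -0.43, and Uqcr11, at -0.22, stood lower by less.

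Cox7a1 was the member that was 2-fold higher on NTS/PGE2 than on NTS, by a factor of 2.82, while Cox8b was 1.43-fold higher. Between these arrays 3 fat markers passed the filter, with Fabp4 1.04 higher and Cidec at -1.31 and Plin4 at -1.92 lower. Proximal tubule markers were higher, with 11 of 14 at least 2-fold, against 4.15% of all genes, and a median of 1.46. Carriers outside the naming rule had a median of 0.11 with 2 of 17, or 11.8%, higher by at least 0.5, near the 12.1% of all genes. Further assembly factors had one of 0.09 with 7 of 31, or 22.6%, and citrate cycle genes one of 0.27 with 5 of 18, or 27.8%. None of these 3 lists had a gene lower by as much. Pcx was higher by 1.22, Acad9 by 0.93 and Tfb1m by 0.88. Cytosolic ribosome genes had a median of -0.34, with 24 of 59, or 40.7%, lower by at least 0.5 against 11.4% of all genes, and mitochondrial ribosome genes one of 0.

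In the third comparison, NTS/PGE2 against control, hardly any member was apart by size. It shares an array with each of the others. The median over the 89 members was -0.05, against 0 over 11534 genes passing the filter. By at least 0.5, 2 members were lower, which is 2.3% against 3.02% of all genes, and 0 higher, against 0.85%. Both were at least 2-fold lower, as were 0.659% of all genes, while 0 members and 0.0607% of all genes were at least 2-fold higher. These members were Cox8b, 5.55-fold lower on NTS/PGE2 than on control, and Cox7a1, 2.22-fold lower. Of 10 measured fat markers, 9 were lower on NTS/PGE2 than on control and Lep was equal. The 9 passed the filter and were lower by at least 0.5, against 3.02% of all genes. Most passed only through the control array, where they were high, so the filter partly set this count. Small negative differences were common: 65 of the 87 members passing the filter, or 74.7%, were lower by any amount, against 41.1% of all genes, and 13 were higher, or 14.9% against 30.8%.

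Medians for NTS/PGE2 against control were -0.10 for the complex I core, -0.08 for its accessory subunits, -0.11 for its assembly factors, -0.04 for complex II, -0.11 for complex III, -0.01 for complex IV and -0.04 for complex V. All 6 core genes of complex I stood lower, from -0.23 in Ndufs7 to -0.01 in Ndufv2, as did 74.7% of members and 41.1% of all genes passing the filter. Outside the isoforms Cox8b, Cox7a1 and Cox6b2, the lowest members were Sdhc at -0.39 and Ndufaf2 at -0.32. Mitochondrial ribosome genes had a median of -0.05 and cytosolic ribosome genes one of -0.10, while proximal tubule markers had one of 0.00.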

How the data were processed

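Kidney RNA, 250 ng per array, was labelled with biotin and read on 3 Affymetrix Mouse Gene 1.0 ST arrays, 1 per group, grouped by the labels. The deposited values are log2 values that the authors made with Affymetrix Expression Console and RMA, as stated per the submitters' processing notes. Software versions and build: not given in the sources used here. In RMA the background is corrected, the arrays' distributions are made equal and each probe set is summarised, which often leaves exactly equal values. The values are not counts, and precision is limited by having 1 array per group.

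Of 35556 probe sets, 21789 carried a single symbol, 1621 several and 12146 none in GEO's platform annotation; only the first entered, averaged to 19938 genes. Identifiers matched the GRCm38.p6 gene table for 21698 probe sets and all 89 members, and altered 0 symbols. Differences were taken between log2 values with Python 3.11.15, pandas 2.3.3 and numpy 2.4.6 and tested on simulated data. No test was run on the real arrays. Shares over all genes passing the filter were computed with the same rule.

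The members and lists, markers included, were chosen with earlier results of these data known. Genes named were members at least 2-fold different, the 2 lowest and 2 highest of each complex in the first and second comparison, a set fixed by role, isoform pairs, the 4 largest of each other list and all regulators; others were added after their values were seen. The 10 alternatives changed the probe set summary, centring, filter, membership and threshold.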

Additional observations from a re-analysis of the deposited data

How the results depend on the processing

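Over 10 alternatives, which gave 87 recomputed medians and counts, 5 counts moved by over 1.5 times or to 0. Only a median could reverse in sign, and 0 did. The changes of filter could not alter a median, since it was taken over all members. The median over members ranged from -0.24 to -0.16 for NTS against control. In the second comparison, NTS/PGE2 against NTS, it ranged from 0.12 to 0.22, the highest without exactly equal genes, against 0.14 as reported. For NTS/PGE2 against control it was -0.08 with arrays centred on the median of all probe sets and -0.02 with arrays centred on bright named probe sets, against -0.05 as reported, so its size depends on the centring. At a threshold of 1 log2 unit, 4 members were lower and 0 higher for NTS against control, while for NTS/PGE2 against NTS 1 member was higher and 0 were lower, by the construction of a stricter rule. Without the tissue-restricted isoforms, 0 members were lower by 0.5 for NTS/PGE2 against control, since both that were are such isoforms. No paired analysis was possible because each group had 1 array. Signal over background was not analysed here, so dim values such as those of Cox7b2 and Cox8c may be background.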
